A study of Mus musculus with 4 samples.

Results

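The E2F transcription factors and the pocket proteins of the retinoblastoma (RB) family were examined for RIF1 occupancy in activated mouse B cells. The set holds 10 genes chosen by name, E2f1 to E2f8, Rbl1 and Rbl2, of 22367 protein-coding and 37273 annotated genes. Rb1, the gene of the retinoblastoma protein itself, is not in the set. DNA bound by the protein was recovered with an antibody against the HA epitope and sequenced (ChIP-seq), from primary splenic B cells harvested after 72 h of activation. The stimuli were the bacterial component LPS at 5 µg/ml and the cytokine IL-4 at 5 ng/ml. Rif1FH/FH cells (2 samples, called Rif1FH) carry Flag and HA epitopes at the N terminus of endogenous RIF1, in homozygous mice kept on a C57BL/6 background. C57BL/6 (Rif1WT/WT) cells (2 samples, called Rif1WT) carry the untagged protein, received the same activation and served as the negative control. RIF1, a regulator of replication timing, was therefore detected through its tag, in cells isolated from spleens with anti-CD43 beads. The antibody label of the samples names the CD43 bead reagent used for that isolation, whereas the protocol names the HA antibody. Mice of both sexes were used in the study. The number and age of those behind each sample were not given in the sources used here, and neither was whether the replicates came from separate animals.

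The data are 1 list of genome intervals on mouse build mm9, called by the authors in each Rif1FH replicate and retained where both had them. The list holds positions only, with no height, no read depth and no value per sample. The spread between replicates, the level in Rif1WT cells and the cell type itself, for which no expression was measured, could therefore not be checked, and no test was made. Intervals under 50 kb are called peaks (16043) and the others wide intervals (289). No peak in the list overlaps a wide interval, so that no peak can be listed at a start covered by one. Wide intervals were taken as the RIF1-associated domains of the study by their size, as the list does not name the kind. Both counts equal those of peaks and of such domains that the study reports for primary B cells. A gene without either is one without a listed interval, which does not show that RIF1 was absent.

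E2F factors bind promoters of genes needed for entry into and passage through S phase, most of them together with a DP partner protein. E2F1, E2F2 and E2F3 are known as activators, E2F4 and E2F5 as repressors that act with pocket proteins, E2F6 as a repressor that works with polycomb proteins, and E2F7 and E2F8 as atypical members that bind DNA without a DP partner. Pocket proteins, here p107 (Rbl1) and p130 (Rbl2), hold E2F factors in a repressive state until cyclin-dependent kinases phosphorylate them, and B cells activated with LPS and IL-4 pass this step when they leave the resting state. Several E2F genes are themselves E2F targets, so that their promoters carry E2F sites.

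To show the promoters in question, the sequence before the most 5′ annotated end of each gene was read from the mm9 reference, 5′ to 3′ on the strand of the gene. An E2F core was taken as the letters TTGGCGC on either strand, or likewise as any of the variants spelled TTCGCGC and also TTCCCGC and also TTGCCGC. The 300 bases of E2f7, E2f8 and Rbl1 are printed in full, with each core in capitals, because these promoters hold a core before the 5′ end and lie wholly under a peak. For E2f1, whose cores lie just inside the transcript, the first 30 transcribed bases are shown.
E2f7 (chr10:110182195-110182494, + strand, all 300 bases under a peak): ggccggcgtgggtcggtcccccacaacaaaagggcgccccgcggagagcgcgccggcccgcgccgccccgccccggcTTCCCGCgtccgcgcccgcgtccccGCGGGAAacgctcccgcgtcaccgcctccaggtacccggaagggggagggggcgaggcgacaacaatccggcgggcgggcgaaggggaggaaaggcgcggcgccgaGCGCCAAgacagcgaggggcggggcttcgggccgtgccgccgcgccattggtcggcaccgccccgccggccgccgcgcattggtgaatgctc
E2f8 (chr7:56136967-56137266, − strand, all 300 bases under a peak): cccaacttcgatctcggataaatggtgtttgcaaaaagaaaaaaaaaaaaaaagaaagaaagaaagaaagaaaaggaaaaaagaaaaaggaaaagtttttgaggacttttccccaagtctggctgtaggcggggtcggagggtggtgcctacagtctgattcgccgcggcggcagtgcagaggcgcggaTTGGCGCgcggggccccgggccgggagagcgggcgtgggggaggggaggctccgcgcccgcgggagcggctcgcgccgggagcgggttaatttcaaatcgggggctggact
Rbl1 (chr2:157030271-157030570, − strand, all 300 bases under a peak): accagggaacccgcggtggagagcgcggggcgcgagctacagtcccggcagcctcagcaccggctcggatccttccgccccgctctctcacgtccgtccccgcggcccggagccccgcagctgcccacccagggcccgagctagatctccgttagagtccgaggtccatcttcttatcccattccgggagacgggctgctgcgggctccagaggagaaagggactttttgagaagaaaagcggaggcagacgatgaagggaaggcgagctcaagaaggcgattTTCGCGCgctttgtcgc
E2f1 (chr2:154395599-154395628, − strand, all 30 bases under a peak): tttcGCGGCAAaaaggatTTGGCGCgtaaa

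RIF1 peaks were listed at the 5′ ends of most, but not all, of these genes. A peak lay within 1 kb of an annotated transcription start site (TSS) in 7 of the 10 genes, namely E2f1, E2f3, E2f6, E2f7, E2f8, Rbl1 and Rbl2, while 33.9% of all coding genes had such a peak. Wide intervals covered E2f2 and E2f5, that is 2 of 10 genes, while 22.6% of coding genes overlapped a wide interval. E2f4 was the only member with neither, a state shared by 40.5% of coding genes. By class, a peak lay at 2 of 3 activators, 1 of 3 repressors, both atypical members and both pocket protein genes of the set. The plot of peaks around the 5′ ends shows these differences.

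**Figure D1:**
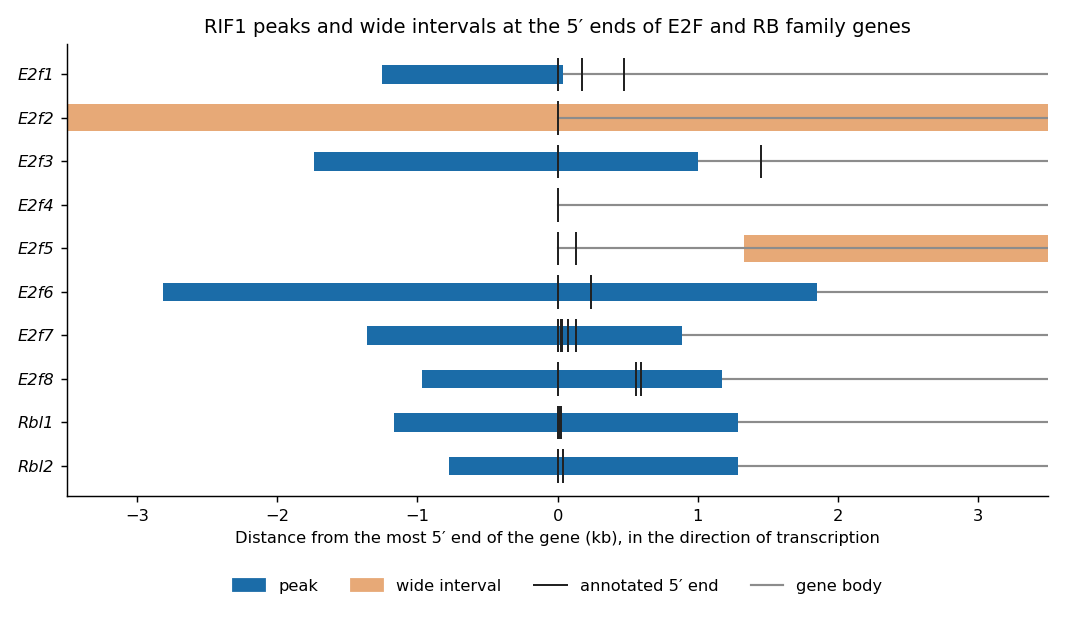
RIF1 peaks (blue) and wide intervals (orange) plotted against the distance from the most 5′ end of each gene in kb, in the direction of transcription, with annotated 5′ ends as vertical lines. A peak crosses the most 5′ end in 7 genes, a wide interval runs across the whole window in E2f2 and begins 1.33 kb inside E2f5, and E2f4 has no interval in this window.

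These shares need to be read against the composition of the promoters. Since no peak is listed inside wide intervals, the 8 members that overlap none, of which 7 had a peak at a TSS, were also set beside the coding genes that overlap none, of which 43.4% had one. Among such genes with a CpG-rich promoter (at least 50% GC and a ratio of observed to expected CpG of at least 0.6 in the 300 bases before the 5′ end) the share was 73.2%, and among the others 27.3%. Of the 7 members outside wide intervals with a CpG-rich promoter, 6 had a peak at a TSS, so that this count was close to that background. E2f5 is left out there although its starts lie outside its wide interval. With genes chosen instead by TSS windows outside wide intervals, a choice made after the data were seen, 7 of 9 members had a peak beside 43.5% of coding genes. Of those with a CpG-rich promoter it was 6 of 8, beside 73.1%. Rbl2 had a peak although its promoter was below the GC limit.

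The activators E2f1 and E2f3 differed in where the peak lay. E2f1 (ENSMUSG00000027490.10, chr2:154385143-154395628, − strand) had a peak of 1289 bp at chr2:154395592-154396880. It ran from 1252 bp upstream to 36 bp downstream of the most 5′ end, so that 97.1% of it lay outside the gene and the remaining 37 bp lay in an exon. The other annotated E2f1 starts, 172 and 475 bp further in, lay just beyond the peak edge. E2f3 (ENSMUSG00000016477.11, chr13:29998444-30077537, − strand) had a peak of 2738 bp at chr13:30076536-30079273, which covered the first of its 2 annotated starts. The second start, of a shorter coding transcript 1.45 kb downstream, lay 448 bp past the edge. This peak held 369 bp of coding sequence and 633 bp of intron.

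E2f2, the third activator, lay under a wide interval instead. The gene (ENSMUSG00000018983.8, chr4:135728309-135751972, + strand) was covered whole by an interval of 3600 kb at chr4:132280001-135880000, which overlapped 92 coding genes and was wider than 98.8% of wide intervals. E2f2 sat near its right end, 128 kb from the edge. All 3 annotated E2f2 starts were inside, and the nearest peak, at the start of 6030445D17Rik, was 266 kb away.

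The repressors E2f4, E2f5 and E2f6 were each different. E2f6 (ENSMUSG00000057469.6, chr12:16817771-16833549, + strand) had the widest peak of the family, 4664 bp at chr12:16814959-16819622, wider than 98.6% of all peaks at TSSs. It extended from 2812 bp upstream to 1851 bp downstream and covered both annotated starts. E2f5 (ENSMUSG00000027552.7, chr3:14578671-14606308, + strand) had 95.2% of its length in a wide interval of 720 kb at chr3:14580001-15300000 that overlapped 7 coding genes. The interval began 1.33 kb downstream of the most 5′ end, and therefore did not include either E2f5 start or the window of 1 kb around it. Wide intervals were drawn on a coarse grid, as 287 of the 289 had both edges on multiples of 2000 bp, and the position of the E2f5 start relative to the edge is no finer than this step. The nearest peak to E2f5, at the start of Lrrcc1, was 44.1 kb upstream.

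E2f4 (ENSMUSG00000014859.8, chr8:107821563-107829269, + strand), the shortest gene of the set at 7.71 kb, had no interval at all. The nearest peak (chr8:107812698-107815017, 2320 bp) ended 6.55 kb upstream of it, over the start of 4931428F04Rik and part of Exoc3l, and the next lay 18.0 kb away in Nol3. The neighbourhood was not empty, as 16 peaks lay within 200 kb of E2f4, the highest number in the family.

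The atypical genes E2f7 and E2f8 carried peaks of similar width. E2f7 (ENSMUSG00000020185.10, chr10:110182495-110224440, + strand) had a peak of 2248 bp at chr10:110181137-110183384. Of 8 distinct E2f7 starts, the 5 that cluster within 133 bp of each other were inside the peak, and the 3 internal ones, 8.82 to 18.4 kb downstream, had no peak within 1 kb. E2f8 (ENSMUSG00000046179.10, chr7:56121799-56136966, − strand) had a peak of 2146 bp at chr7:56135791-56137936 that held 3 of its 4 starts. This was the only peak of the set that also met the TSS window of another gene, the lincRNA Gm2788.

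Both pocket protein genes of the set had a peak centred just inside the gene. Rbl1 (ENSMUSG00000027641.7, chr2:156971629-157030270, − strand) had a peak of 2450 bp at chr2:157028987-157031436, with its midpoint 59 bp downstream of the most 5′ end. Rbl2 (ENSMUSG00000031666.8, chr8:93593956-93647743, + strand) had a peak of 2066 bp at chr8:93593180-93595245, with its midpoint 256 bp downstream. Rbl2 was also the only member with a further peak in its body, 1040 bp of intron at chr8:93605661-93606700, centred 12224 bp from the 5′ end. Among the coding genes that had a TSS peak, 19.2% had an additional one elsewhere in the gene. More than 1 peak at TSSs was listed for 8.06% of them and for 0 of the 7 members.

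Where these genes had a TSS peak it lay at the most 5′ start, and none was listed at starts far inside them. Of the 36 distinct 5′ ends annotated for the family, 17 were inside a peak and 20 had a peak within 1 kb. The 12 starts that lay over 5 kb downstream of the most 5′ end, in E2f2, E2f7, E2f8, Rbl1 and Rbl2, had 0 peaks within 1 kb. Those of E2f2 lay in its wide interval, where no peak could be listed. The other 10 belong to transcripts annotated as retained intron, processed transcript or subject to nonsense-mediated decay. Shares over the 5′ ends of all coding genes were not counted, so that nothing particular to this family can be read from these counts.

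Relative to the most 5′ end, the peak midpoint lay upstream in E2f1 (608 bp), E2f6 (481 bp), E2f3 (367 bp) and E2f7 (235 bp). It lay downstream in Rbl1 (59 bp), E2f8 (103 bp) and Rbl2 (256 bp). Over 6934 coding genes with a single peak there, the median midpoint was 45 bp downstream, with quartiles of -219 and 314 bp. The 4 E2F genes with an upstream midpoint were therefore beyond the lower quartile, and E2f8 and the pocket protein genes were within the quartiles. All 7 peaks crossed the 5′ end, that of E2f1 by only 36 bp.

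The 7 peaks at member TSSs were 1289 to 4664 bp wide, with a median of 2248 bp, while the 7801 peaks at any TSS had a median of 1550 bp. All but that of E2f1 were wider than this median, and those of E2f3, Rbl1, E2f7, E2f8 and Rbl2 fell between its 72.2 and 88.5 percentiles. E2f1, at the 36.0 percentile, had the narrowest. In GC content, at 49.3 to 60.0%, the peaks were spread on both sides of the median of all TSS peaks (54.4%), with E2f6 and Rbl2 lowest and E2f8 highest. The histogram of widths places each gene in the distribution.

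**Figure D2:**
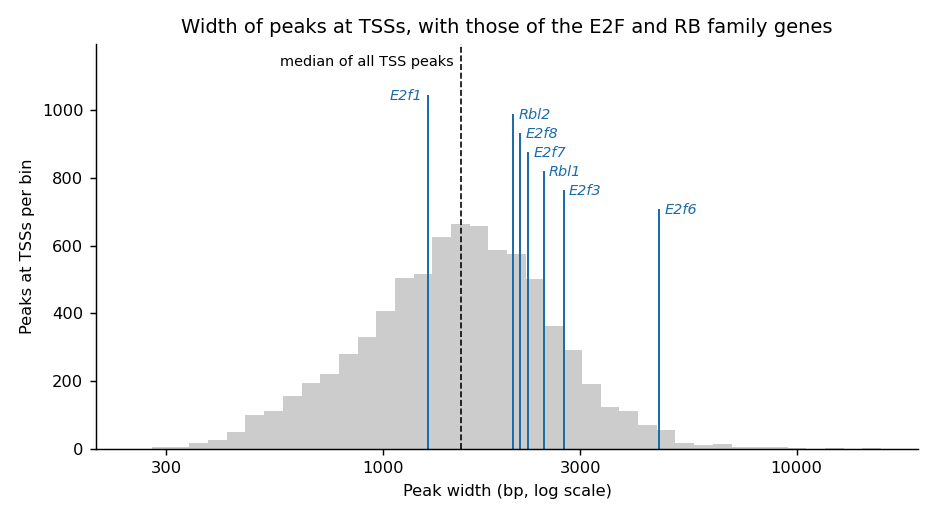
Width in bp (log scale) of the 7801 peaks at TSSs (grey, peaks per bin), with vertical blue lines at the widths of the 7 E2F and RB family peaks. The height of a blue line carries no value. All lines but that of E2f1 are right of the dashed median (1550 bp), and E2f6, at 4664 bp, is in the right tail.

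The promoters themselves were compared next, as sequence was not used to choose the genes. An E2F core lay in the 300 bases before the 5′ end in 4 of 10 members, beside 10.2% of all coding promoters, and within 300 bases on either side in 6 of 10, beside 21.2%. Of all coding promoters 36.0% were CpG-rich, beside 8 of 10 members. Whether the difference in cores follows this composition was not tested. E2f7 had the most, with 3 cores before the 5′ end, beginning 223, 198 and 92 bases upstream, and 1 after it. E2f8 and Rbl1 had cores beginning 111 and 17 bases upstream and 1 more each downstream. E2f1 had both of its cores in the first transcribed bases, beginning at bases 5 and 19. E2f4 had only 1 core, 272 bases into the gene. The window of E2f3, E2f5, E2f6 and Rbl2 held no match, which says only that these letters are not there.

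Presence of a core and presence of a peak did not always coincide. Of the 6 genes with a core within 300 bases of the 5′ end, 4 had a peak at a TSS (E2f1, E2f7, E2f8 and Rbl1), and of the 4 without a core, 3 had a peak (E2f3, E2f6 and Rbl2). The cores of the former 4 genes were all inside the peak. Of the genes with a core but no peak, E2f2 has its starts in a wide interval, where no peak could be listed. Only E2f4 could have had one. The cell cycle element CHR (TTTGAA or TTCGAA), found at many genes repressed by the DREAM complex, lay before the 5′ end in E2f8 and Rbl2, or 2 of 10 beside 19.9% of coding promoters (28.9% with 300 bases on either side, again 2 members). In E2f8 it began 20 bases upstream, downstream of the E2F core. CCAAT, the letters bound by NF-Y, was found before the 5′ end in E2f1 (3 matches), E2f7 (2), E2f2 and E2f8 (1 each), so in 4 of 10 beside 39.0%, and on either side in the same 4 beside 53.4%. In E2f8 it lies on the opposite strand and overlaps the E2F core by 4 bases. GC boxes (GGGCGG) lay there in 4 members as well, beside 40.9%, with 6 matches in E2f1 and 5 in E2f7, and on either side in all 10 beside 54.8%. All motifs were searched on both strands, and their shares are over all coding promoters, not over CpG-rich ones alone.

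By composition, 8 of 10 members had a CpG-rich promoter, beside 36.0% of coding genes. GC content ranged from 46.3% in E2f2 and Rbl2 to 78.7% in E2f7, and the ratio of observed to expected CpG from 0.62 in Rbl2 to 1.21 in E2f8. The median ratio was 0.957 in the members and 0.478 in all coding genes. Of the members without a peak at a TSS, E2f5 (1.02) and E2f2 (0.95) lay amid those with a peak, and E2f4 (0.73) lay above Rbl2 only. E2f2 lay in a wide interval, where no peak could be listed.

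**Figure D3:**
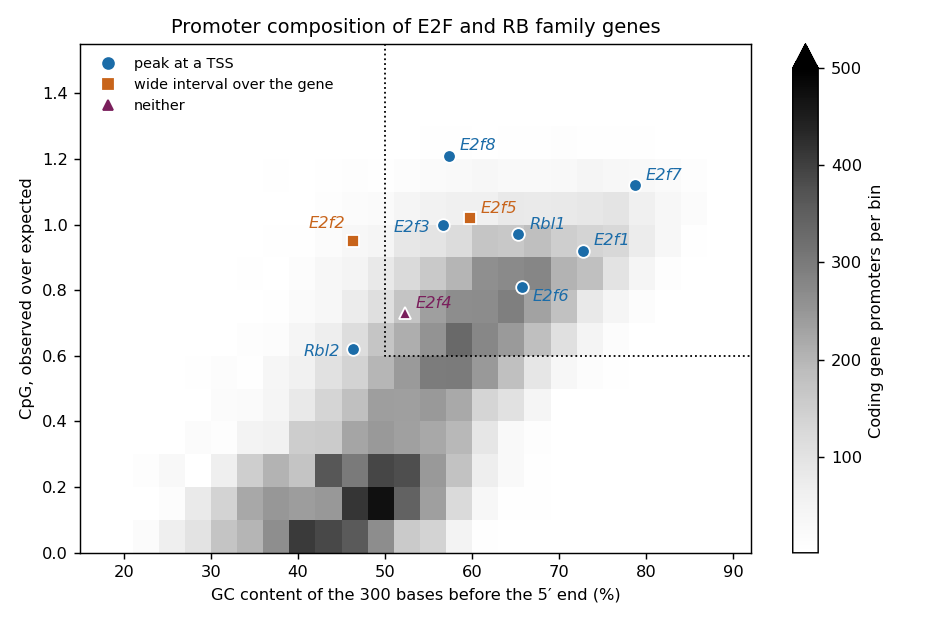
GC content in percent and the ratio of observed to expected CpG of the 300 bases before the 5′ end, with coding genes as grey bins and the 10 members as symbols by their RIF1 interval. The dotted lines bound CpG-rich promoters, which include 8 members, with E2f2 and Rbl2 to the left at 46.3% GC.

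Further out, peaks within 200 kb on each side were listed for 9 of 10 genes, beside 69.3% of coding genes, with a median of 7.5 peaks in the members and 3 in coding genes. E2f2 had 0, and E2f5, with the downstream side taken up by its wide interval, had 2. The others had 5 (E2f7), 6 (E2f6), 7 (E2f3), 8 (Rbl2), 9 (E2f8 and Rbl1), 11 (E2f1) and 16 (E2f4). Leaving out the peaks of the members themselves, 35 of 65 flanking peaks lay at a TSS of another coding gene. Of all 16043 peaks, 7801 lay at a TSS of any annotated gene, coding or not, so that the flank count was close to that share.

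By locus the counts of neighbours are small and are given as a description only. Around E2f4, 20 other coding genes started within the flanks. A peak was at a TSS in 12 of them, and around E2f1 in 6 of 9, beside 33.9% of all coding genes. Around E2f8, E2f7 and E2f3 only 2, 1 and 2 other coding genes started, and 1 of 8, 1 of 4 and 2 of 6 neighbouring peaks were at their TSSs. The remaining peaks at these 3 loci thus lay away from the starts of other coding genes. A wide interval was found within 200 kb of 3 members, E2f2, E2f5 and E2f8, beside 28.7% of coding genes. That near E2f8 (936 kb, chr7:56304001-57240000) began 167 kb upstream of the gene. The next nearest were 494 kb from E2f7 and 540.5 kb from E2f3, and for Rbl1 and Rbl2 the distance was 5632 and 5874 kb.

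**Figure D4:**
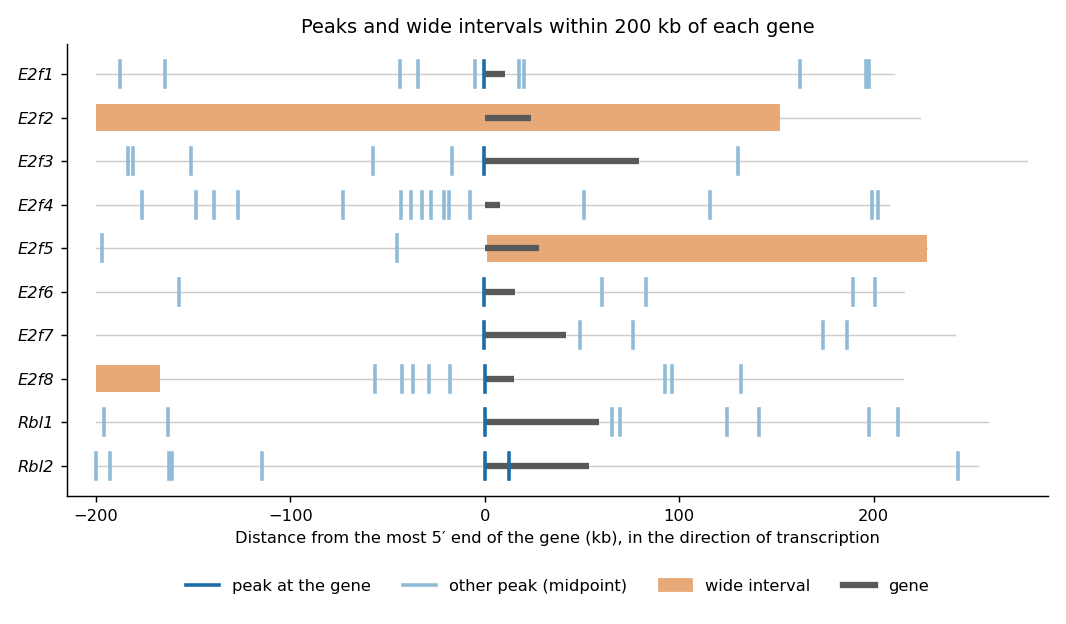
Peak midpoints (vertical lines, dark blue at the gene and light blue elsewhere) and wide intervals (orange) within 200 kb on each side of each gene, against the distance from its most 5′ end in kb. E2f2 has no peak in view, E2f5 has peaks on the upstream side only, and E2f4 is flanked by 16 peaks without any at the gene.

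Genes that act with these factors were then counted, in lists of 63 genes in all. A peak was at a TSS in 32 of them (50.8%, beside 33.9% of coding genes) and a wide interval over 23 (36.5%, beside 22.6%). Outside wide intervals, 32 of 40 had a peak at a TSS, beside 43.4% of coding genes. The share was 73.2% among such coding genes with a CpG-rich promoter, but the pathway genes were not split by promoter composition. The lists differed in their make-up, as the plot of the lists shows. No peak can be listed under a wide interval, so each list was also counted outside them. There a peak was at a TSS in 2 of 2 DP partners, 6 of 6 G1 cyclins and kinases and 2 of 2 CDK inhibitors. It was 2 of 5 for DREAM genes, 6 of 9 for E2F6 partners and 14 of 16 for E2F targets.

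**Figure D5:**
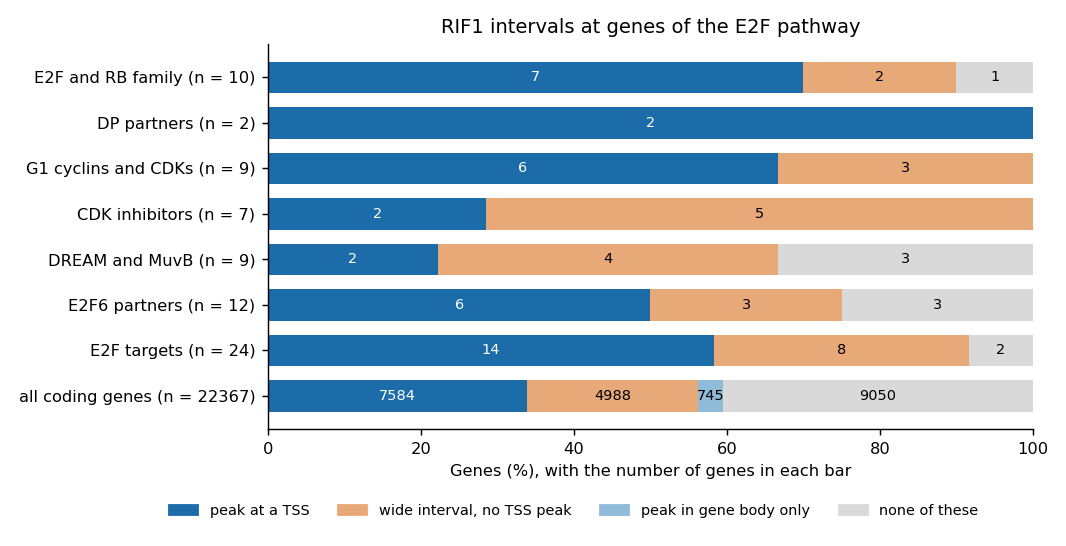
Share of genes in percent with a peak at a TSS, with a wide interval and no TSS peak, with a peak in the gene body only, or with none of these, in the family, its pathway lists and all coding genes. Numbers in the bars are genes. The CDK inhibitors have 5 of 7 genes under wide intervals, and the G1 cyclins and CDKs have 6 of 9 with a peak at a TSS.

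Both DP partner genes, whose proteins form dimers with E2F1 to E2F6, had a peak at a TSS, of 2023 bp at Tfdp1 and 1904 bp at Tfdp2. Of the genes listed as cyclins and kinases that phosphorylate pocket proteins, 6 of 9 had one, beside 33.9% of coding genes. These peaks were at Ccnd1, Ccnd2, Ccnd3, Cdk6, Ccne1 and Ccnc. The widest were at Ccnd2 (6808 bp) and Cdk6 (4344 bp), which encode a D-type cyclin and its partner kinase, followed by Ccnd1 (2090 bp). Cdk4 and Cdk2 were instead under wide intervals, and Ccne2 was so only in part, with its start inside. The partner kinases of cyclin D were therefore divided, Cdk6 with a peak and Cdk4 in a wide interval.

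Of 7 genes for inhibitors of these kinases, 5 were in wide intervals, beside 22.6% of coding genes. These were Cdkn1a (p21), Cdkn1b (p27), Cdkn2a, Cdkn2b and Cdkn2d. Cdkn2a and Cdkn2b lay in the same interval of 680 kb, so that these are 4 intervals. Cdkn2c (p18) and Cdkn1c (p57) had peaks at a TSS, of 2061 and 1299 bp. DREAM is the complex in which E2F4 and a pocket protein repress cell cycle genes. Its subunits and partners had a peak at a TSS in 2 of 9, Lin52 (1890 bp) and Mybl1 (1547 bp), beside 33.9% of coding genes. Lin9, Lin37 and Rbbp4 were under wide intervals. Lin54 was so only in part, as its interval began at position 100926001, within the gene (chr5:100870937-100929658). Mybl2, Dyrk1a and Foxm1 had neither, with the nearest peak 18.0, 28.3 and 6.66 kb away.

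Partners of E2F6 in polycomb complexes had a peak at a TSS in 6 of 12, beside 33.9% of coding genes. The widest were at Max (2105 bp), Wdr5 (1817 bp) and Cbx3 (1808 bp). Ring1 and Ehmt2 were under a wide interval, both in the widest of the list (4842 kb, on chromosome 17). Mga was only in part under another, of 184 kb, with its start inside. L3mbtl2, Rnf2 and Ehmt1 had neither. Of 24 classic E2F target genes, 14 had a peak at a TSS, beside the same 33.9%. The widest were at Cdt1 (4388 bp), which loads the MCM helicase, at Rrm2 (3288 bp), a subunit of ribonucleotide reductase, and at Ung (2522 bp), which removes uracil from DNA. Cdc6, Gmnn, Mcm2, Mcm7, Tk1, Tyms and Uhrf1 were under wide intervals, and Cdc25a and Mcm6 had neither. Ezh2 was only in part under one, which began at position 47538001, within the gene (chr6:47480273-47545340). The genes with neither in these last lists were named after their values were seen.

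Whether the family counts depend on how overlap is defined was examined. With TSS windows of 0.1 to 5 kb the same 7 genes had a peak. Over the gene body, by contrast, the count of 7 of 10 (35.9% of coding genes) fell to 3 of 10 (E2f8, Rbl1 and Rbl2) when the midpoint had to lie inside, with 25.7% of coding genes. This follows by construction, as the peaks of E2f1, E2f3, E2f6 and E2f7 are centred upstream.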

How the data were processed

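ChIP-seq was performed in 2 Rif1FH and 2 Rif1WT samples, with chromatin sheared to 200 to 600 bp. Per the labels and the study's methods, the authors trimmed reads (Trim Galore 0.6.4), kept unique alignments to mm9 (Bowtie 1.0.0), called narrow and broad peaks (MACS2 2.2.6) and broad domains (EDD) per replicate, merged them (bedtools 2.27.1) and retained those called in both. Unique alignment leaves out repeated sequence. The deposited list has 3 columns, chromosome, start and end. Depth is unknown, and thresholds are not given in the sources used here.

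Coordinates count from 1 on mm9 (NCBIM37), with genes from GENCODE M1 on chromosomes 1 to 19, X and Y. Overlap meant at least 1 bp. TSS windows took 1 kb on each side of every transcript 5′ end, and flanks 200 kb on each side of the gene. The overlap code was tested on simulated data. Members and gene lists were chosen with earlier results of these data known, and no test was made. Named were all members, genes sharing their peaks and, per list, every gene under a wide interval, up to 3 genes with the widest TSS peaks and, in lists of up to 9 genes, those with neither. Nearest neighbours without a member peak, and also Ccnd3, Ccne1 and Ccnc, were named after their values were seen. Promoter sequences of members other than E2f7, E2f8 and Rbl1 are not reported here. Python 3.11.15 and numpy 2.4.6 were used.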

Additional observations from a re-analysis of the deposited data

How the results depend on the processing

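Over 26 recomputed values, 23 were kept (counts within 1.5 times) and 3 moved. The count of members with a peak at a TSS ran from 6 to 8 over 9 alternatives. It was 6 where 50% of the peak had to be inside (without E2f6) or with only the wider peaks, from the median of 1365 bp upward (without E2f1), and 8 with wide intervals included (with E2f2). The count over the gene fell to 3 both when the midpoint and when at least 50% of the peak had to lie inside, by construction, and was 9 with wide intervals included. Peaks within the flanks were found for 9 to 10 members and wide intervals for 2 to 4, with flanks of 100 and 500 kb among the alternatives. The median distance from member to nearest peak was 0 bp, and 424 bp from the most 5′ end to the nearest midpoint (41.8 kb over coding genes). The count under wide intervals had no alternative.

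No paired analysis was possible because 1 combined list stands for both Rif1FH replicates and none for Rif1WT. A replicate could not be omitted in turn for that reason. Without scores, width served as the stricter threshold. Depth is unknown, so that a weak peak cannot be told apart from none.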
